A study of Mus musculus with 9 samples.

Results

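The 8 genes described here encode receptors that recognise the constant (Fc) region of antibodies, or a chain that these receptors need: Fcgr1, Fcgr3, Fcgr4, Fcgr2b, Fcer1g, Fcgrt, Fcmr and Fcrla. They were taken by symbol from the 20926 genes of a table of blood expression values, and all 8 were present and passed the filter on low values. The table holds 9 libraries from male DBA/1 mice, 7 weeks old by the labels, with 3 libraries in each group. The authors give 7 weeks as the age when the mice were divided into groups, so the mice were older when blood was taken. The Ctrl mice had no arthritis and were not irradiated. The CIA mice carried collagen-induced arthritis, raised by immunization with chick type II collagen in adjuvant and a booster, and were not irradiated. The CIA+THz mice also carried this arthritis, and their swollen ankles were exposed to a 0.1 THz wave for 30 min a day over 14 days under isoflurane anesthesia. Anesthesia of the other 2 groups is not given in the sources used here, so irradiation and anesthesia cannot be told apart. CIA+THz and CIA share the arthritis, and neither group is free of adjuvant. Whether a library was 1 mouse or a pool is not stated, so the p-values measure only the spread between these libraries.

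Fc receptors connect antibodies bound to an antigen with the cells that respond to them. In mice the IgG receptors Fcgr1, Fcgr3 and Fcgr4 activate myeloid cells through the common gamma chain encoded by Fcer1g, whose activation motif recruits the kinase Syk, whereas Fcgr2b carries an inhibitory motif and dampens the same cells and B cells. Fcgrt encodes the neonatal Fc receptor, which pairs with beta-2-microglobulin and returns IgG from endosomes to the blood, Fcmr encodes the IgM receptor of B cells, and Fcrla encodes an Fc receptor-like protein kept inside B cells. Collagen-induced arthritis is driven in part by antibodies to type II collagen, which form immune complexes in the joint.

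Values were FPKM, fragments scaled for gene length and library size, divided by 1 scaling factor per library so that the typical gene had the same level in every library, and are called rescaled FPKM. The factors lay between 0.837 and 1.22 and were highest in CIA+THz. Rescaling moved the log2 fold changes of CIA+THz down, by 0.28 against CIA and by 0.31 against Ctrl for a gene well above the pseudocount, and moved those of CIA against Ctrl by 0.03. The differences of CIA+THz given here are therefore relative to the typical gene, and values of CIA+THz against CIA without rescaling are given beside them. The labels name the tissue as blood leukocytes, while the extraction protocol speaks of total blood RNA. Markers of neutrophils, classical monocytes, B cells, T cells and platelets were present in all 9 libraries, and so was RNA of red cell precursors, with Alas2, the first enzyme of heme synthesis in red cells, at a mean of 78555 rescaled FPKM. Levels in such a mixture cannot tell fewer cells of a type from less RNA per cell.

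Of the 8 genes, 5 lie on mouse chromosome 1 in an interval of 317 kb, from Fcrla through Fcgr2b, Fcgr4 and Fcgr3 to Fcer1g (GRCm38, chr1:170917576-171234365), which holds 12 protein-coding genes in GENCODE. Fcmr lies elsewhere on the same chromosome (chr1:130865669-130880791), Fcgr1 on chromosome 3 (chr3:96282909-96293969) and Fcgrt on chromosome 7 (chr7:45092990-45103851). The promoters of Fcgr1, Fcgrt and Fcmr are shown because these 3 genes, none of them in that interval, rose against Ctrl in both arthritic groups. Each is the 250 bases before the annotated start, from RefSeq (GRCm38.p6), 5′ to 3′ on the strand of the gene, at chr3:96293970-96294219 (minus strand), chr7:45103823-45104072 (minus strand) and chr1:130865527-130865776 (plus strand). Capitals mark TTCNNNGAA, the core of the sites that STAT proteins bind, and GAGGAA or its reverse complement, the core of sites of the myeloid and B cell factor PU.1.
Fcgr1: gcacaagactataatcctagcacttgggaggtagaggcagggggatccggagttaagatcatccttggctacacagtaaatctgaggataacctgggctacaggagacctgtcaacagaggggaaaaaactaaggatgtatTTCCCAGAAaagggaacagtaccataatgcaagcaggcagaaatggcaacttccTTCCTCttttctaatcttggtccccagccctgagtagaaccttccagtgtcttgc
Fcgrt: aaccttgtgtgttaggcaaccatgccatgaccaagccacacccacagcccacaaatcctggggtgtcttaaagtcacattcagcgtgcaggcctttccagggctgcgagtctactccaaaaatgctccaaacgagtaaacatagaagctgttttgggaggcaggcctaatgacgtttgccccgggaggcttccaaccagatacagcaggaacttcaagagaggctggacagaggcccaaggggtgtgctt
Fcmr: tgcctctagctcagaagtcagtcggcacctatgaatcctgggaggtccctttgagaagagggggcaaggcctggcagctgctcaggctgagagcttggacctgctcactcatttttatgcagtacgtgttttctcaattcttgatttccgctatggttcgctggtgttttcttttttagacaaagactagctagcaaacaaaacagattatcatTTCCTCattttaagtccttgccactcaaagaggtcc
Windows of 300 bases (250 before the start and 50 after it) were searched for both motifs on both strands, and all 8 genes had a window. TTCNNNGAA was found in 1 of the 8 genes, Fcgr1, where it began 109 bases before the start, and 8.30% of the 32851 promoter windows of the RefSeq table held it. GAGGAA was found in 5 of the 8 genes, namely Fcgr1, Fcgr3, Fcgr4, Fcmr and Fcrla, against 28.3% of all windows. In Fcgr1 the 2 motifs did not overlap. These matches describe the letters only, and binding was not measured.

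A second pair of sequences bears on how far the values of Fcgr2b and Fcgr3 can be separated. Over the part where their coding sequences align, 509 bases, 96.5% of the bases were identical, and the longest identical run was 129 bases. Of the 31-base words in the coding sequence, 23.5% of those of Fcgr2b also occurred in Fcgr3, and 30.2% of those of Fcgr3 in Fcgr2b. Neither gene shared a single such word with Fcgr1 or Fcgr4. The most similar 200 bases (positions 278 to 477 of the Fcgr2b coding sequence and 263 to 462 of that of Fcgr3, from GENCODE transcripts) are shown, with the base that differs in capitals.
Fcgr2b: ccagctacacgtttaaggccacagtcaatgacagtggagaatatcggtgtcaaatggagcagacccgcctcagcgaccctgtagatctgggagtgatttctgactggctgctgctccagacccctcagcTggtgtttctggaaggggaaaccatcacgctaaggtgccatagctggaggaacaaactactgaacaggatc
Fcgr3: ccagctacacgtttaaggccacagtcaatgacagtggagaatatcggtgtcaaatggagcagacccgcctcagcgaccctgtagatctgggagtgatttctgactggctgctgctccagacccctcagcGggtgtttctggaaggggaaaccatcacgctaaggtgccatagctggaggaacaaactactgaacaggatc
Reads were 150 bases long and paired, and a read pair inside such a stretch may be assigned to either gene. The values of Fcgr2b and Fcgr3, and ratios that contain either gene, are uncertain to that extent. Gm38204 lies antisense over Fcgr2b and Gm45669 antisense over Fcgrt, neither was in the table, and whether strand was used in the counting is not given in the sources used here.

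The 8 genes spanned a wide range of levels per length. Over the 9 libraries the mean was highest for the shared chain Fcer1g, at 470 rescaled FPKM (range 356 to 636), followed by Fcgr3 at 156, Fcmr at 98.5, Fcgr2b at 38.5, Fcgr4 at 23.3, Fcrla at 22.7, Fcgr1 at 9.73 and Fcgrt at 5.74. Fcer1g was above Fcgr3 in 9 of 9 libraries, Fcmr above Fcgr2b in 9 of 9, Fcgr2b above Fcgr4 in 9 of 9 and Fcrla above Fcgr1 in 9 of 9. The neighbours Fcgr3 and Fcmr kept their order in 7 of 9 libraries, Fcgr4 and Fcrla in 6 of 9, and Fcgr1 and Fcgrt in 7 of 9. Fcgr3 was below Fcmr only in CIA+THz replicates 2 (125 against 148) and 3 (110 against 115). Fcgr1 was below Fcgrt only in Ctrl replicates 2 (1.63 against 3.47) and 3 (1.74 against 2.50). The order of Fcgr4 and Fcrla turned in a library of every group.

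**Figure D1:**
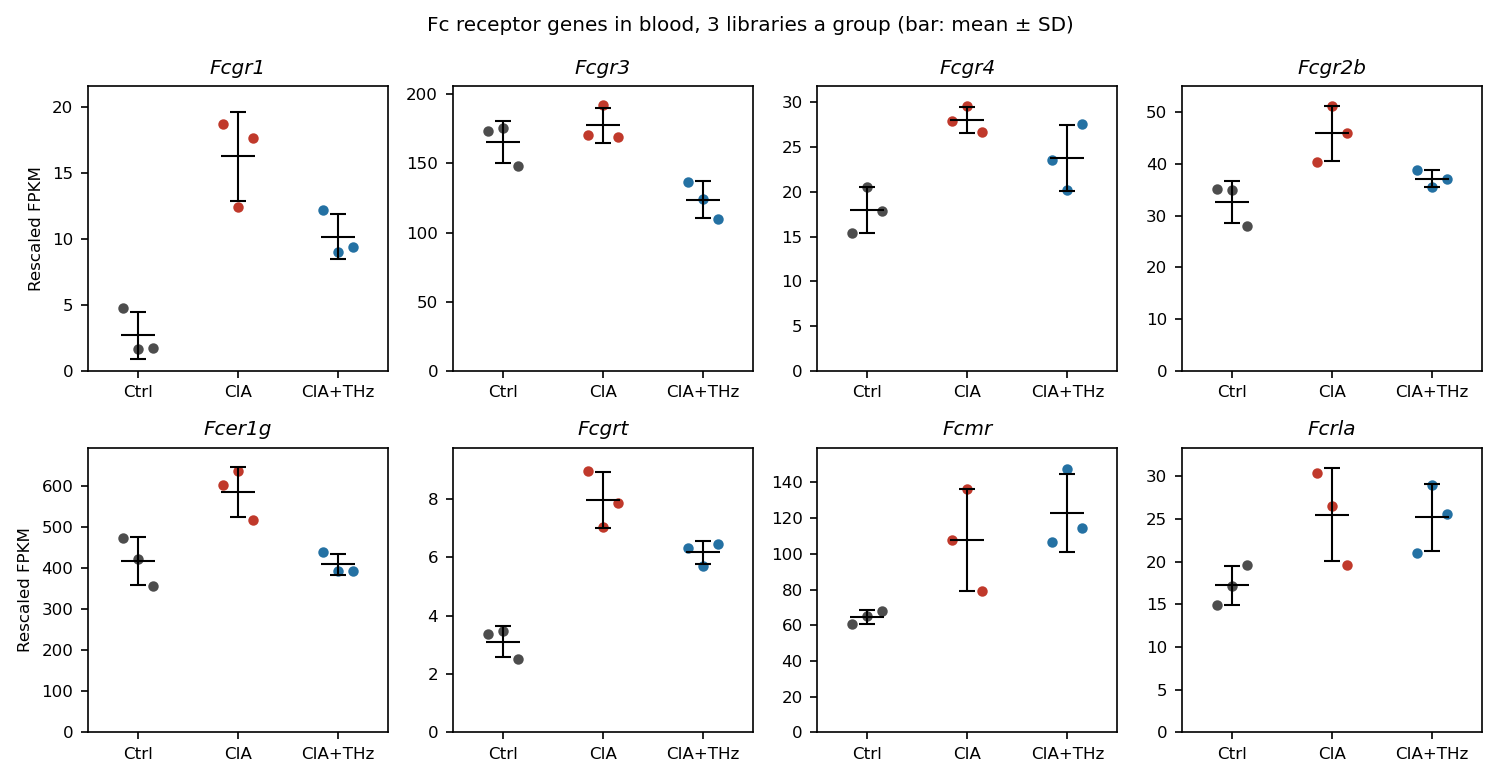
Level of each Fc receptor gene (y axis, rescaled FPKM from 0) in the 3 libraries of Ctrl, CIA and CIA+THz (x axis), with 1 point per library and bars for mean ± SD. Fcgr1 and Fcgrt stood at 1.63 to 4.75 and 2.50 to 3.47 in Ctrl, 12.4 to 18.7 and 7.04 to 8.97 in CIA, and in between in CIA+THz, while Fcmr stayed at 107 to 148 in CIA+THz.

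The first comparison asked which Fc receptor genes differ in the blood of arthritic mice. All 8 genes had a higher mean in CIA than in Ctrl, with a median log2 fold change of 0.60 against -0.01 over all 12382 genes tested. Fcgr1, Fcgrt and Fcmr rose by the criterion used for pairs of groups, a limma p under 0.05 together with a log2 fold change beyond 0.67 in either direction. That made 3 of 8 genes, where 4.78% of all genes tested rose. On p alone, 7 of the 8 were higher at p under 0.05, against 8.84% of all genes, and in 7 of the 8 every CIA library lay above every Ctrl library, against 11.7% of all genes. None of the 8 had an adjusted p under 0.05, and 19 of all genes did. The 8 genes were chosen with earlier results of these data known, so these shares describe the list and do not test it.

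The second comparison asked how these genes differ between irradiated and non-irradiated arthritic mice. Of the 8 genes, 7 had a lower level in CIA+THz than in CIA and 1, Fcmr, had a higher level, with a median log2 difference of -0.33 against 0.03 over all genes. None met the criterion, by which 1.58% of all genes fell. On p alone, Fcgr1, Fcgr3, Fcgr2b and Fcer1g were lower, 4 of 8 against 7.33% of all genes, and these 4 and Fcgrt had no overlap between the groups, 5 of 8 against 10.2%. None of the 12382 genes had an adjusted p under 0.05 in this comparison, where 1638 had an unadjusted p under 0.05. This pattern depended on the rescaling. With FPKM as deposited, 5 of the 8 genes were lower and 3 higher, the median log2 difference was -0.05, 0 of the 8 reached a p of 0.05 and in all 8 the groups overlapped. Over all genes, 366 rose and 196 fell with rescaling, and 1133 rose and 66 fell without it.

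The third comparison set the irradiated arthritic mice against the mice without arthritis. Fcgr1, Fcgrt and Fcmr, the genes that rose in CIA, also rose in CIA+THz against Ctrl, 3 of 8 where 4.64% of all genes rose. Both comparisons share the Ctrl libraries. On p alone 5 of the 8 were higher, against 8.39%, and in 5 of the 8 all CIA+THz libraries lay above all Ctrl libraries, against 11.9%. Fcgr3 had every CIA+THz library below every Ctrl library, 1 of 8 where 12% of all genes did. With FPKM as deposited, Fcgr4 and Fcrla also met the criterion and Fcgr3 overlapped. Across the 3 groups, all 8 genes had a limma F-test p under 0.05, against 21.2% of all genes, and 2 of 8, Fcgr1 (adjusted p = 0.0127) and Fcgrt (adjusted p = 0.0174), had an adjusted p under 0.05, against 2.56%.

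**Figure D2:**
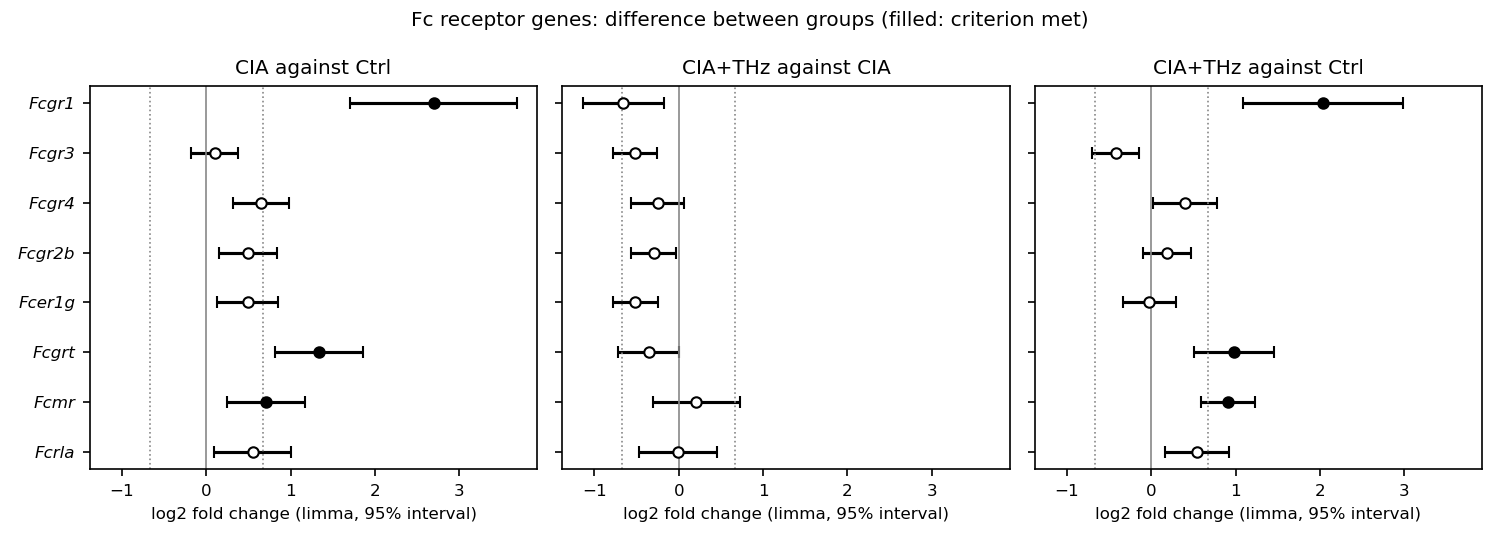
Difference between groups for each gene (x axis, log2 fold change from limma with its 95% interval; 1 panel per comparison), with dotted lines at ±0.67 and filled points where the criterion was met. Fcgr1, Fcgrt and Fcmr are filled in both comparisons with Ctrl, and no gene is filled between CIA+THz and CIA.

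Among the activating IgG receptors, Fcgr1, the high-affinity receptor found on monocytes and macrophages, differed most. In Ctrl it measured 4.75, 1.63 and 1.74 rescaled FPKM, which compared with 18.7, 12.4 and 17.7 for the CIA libraries and with 12.2, 9.0 and 9.41 after irradiation. The 3 groups did not overlap, with CIA highest and CIA+THz between CIA and Ctrl, although the lowest CIA library and the highest CIA+THz library were only 12.4 and 12.2. Fcgr1 was 6.47-fold higher in CIA than in Ctrl (log2 fold change 2.69 ± 0.42 SE, limma adjusted p = 0.0627) and 4.10-fold higher in CIA+THz than in Ctrl (2.03 ± 0.40, adjusted p = 0.0991). Ctrl replicate 1 had the highest Ctrl level. Without it the log2 fold change of CIA against Ctrl was the highest of any setting tried, 3.18. Between CIA+THz and CIA the log2 difference was -0.66 ± 0.20 (adjusted p = 0.271), just inside the minimum of 0.67. It met the criterion when CIA+THz replicate 1 (-0.79) or CIA replicate 2 (-0.84) was left out, and with FPKM as deposited it was -0.38 with overlapping groups.

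Fcgr3, the low-affinity activating receptor of neutrophils, monocytes, macrophages and NK cells, followed another course. The Ctrl libraries held 173, 176 and 148 rescaled FPKM, the CIA libraries 171, 192 and 169, and the irradiated ones 137, 125 and 110. Ctrl and CIA overlapped, and all 3 CIA+THz libraries were below both. The log2 difference of CIA against Ctrl was 0.10 with a 95% interval from -0.18 to 0.38. CIA+THz was 0.52 ± 0.11 lower on the log2 scale than CIA, a fold change of 0.696 (limma adjusted p = 0.210), and the difference from Ctrl was -0.42 ± 0.12 (adjusted p = 0.154). With FPKM as deposited these 2 values were -0.24 and -0.11, and the libraries overlapped.

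Fcgr4, which binds IgG2a and IgG2b on monocytes and neutrophils, measured 15.4, 20.6 and 17.9 rescaled FPKM in Ctrl, with 27.9, 29.6 and 26.7 among the CIA libraries and 23.6, 20.2 and 27.5 among those of CIA+THz. CIA lay above Ctrl in every library, whereas CIA+THz overlapped both. The log2 fold change of CIA against Ctrl, 0.65 ± 0.14 (limma adjusted p = 0.0996), stayed just under the fold minimum, and it met the criterion with FPKM as deposited (0.68), without Ctrl replicate 2 (0.75) and without CIA replicate 3 (0.68). Against CIA the log2 difference of CIA+THz was -0.25 (95% interval -0.56 to 0.07), and it turned to 0.03 with FPKM as deposited.

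The inhibitory receptor Fcgr2b was at 35.1, 34.9 and 27.9 rescaled FPKM in Ctrl, against 40.4, 51.2 and 46.0 for CIA and 38.7, 35.5 and 37.1 for CIA+THz. The CIA libraries were above those of both other groups, and the CIA+THz libraries were above those of Ctrl by a small margin, 35.5 against 35.1. With FPKM as deposited this margin was wider, 40.0 against 31.8. The log2 difference of CIA+THz from Ctrl was 0.19 with rescaling and 0.50 without it. Fcgr2b was 1.40-fold higher in CIA than in Ctrl (log2 0.49 ± 0.15, limma adjusted p = 0.175), below the fold minimum. Between CIA+THz and CIA the log2 difference was -0.30 ± 0.11 (adjusted p = 0.329), and -0.02 with FPKM as deposited.

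Fcer1g, the gamma chain that the activating receptors and the IgE receptor share, was the most abundant of the 8. Ctrl libraries held 473, 422 and 356 rescaled FPKM of it, CIA libraries 601, 636 and 518, and CIA+THz libraries 439, 394 and 394. CIA stood above both other groups in every library, and CIA+THz lay within the range of Ctrl. The log2 fold changes were 0.49 ± 0.15 for CIA against Ctrl (limma adjusted p = 0.190), -0.51 ± 0.11 for CIA+THz against CIA (adjusted p = 0.210) and -0.02 ± 0.13 for CIA+THz against Ctrl (95% interval -0.33 to 0.29). With FPKM as deposited the last 2 were -0.24 and 0.29.

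Fcgrt, the neonatal receptor that keeps IgG in circulation and is expressed by monocytes and macrophages, had the lowest level of the 8 and a course like that of Fcgr1. In Ctrl it measured 3.36, 3.47 and 2.50 rescaled FPKM, in arthritic mice 8.97, 7.04 and 7.85, and in the irradiated arthritic mice 6.32, 5.71 and 6.45. No library of a group fell within the range of another group. Fcgrt was 2.52-fold higher in CIA than in Ctrl (log2 1.34 ± 0.22, limma adjusted p = 0.0675) and 1.97-fold higher in CIA+THz than in Ctrl (0.98 ± 0.20, adjusted p = 0.104). CIA+THz against CIA gave -0.36 (95% interval -0.72 to 0.00, adjusted p = 0.381), and -0.08 with FPKM as deposited. B2m, which encodes the light chain that the neonatal receptor shares with MHC class I, did not meet the criterion in any pair. It was at 835 to 1122 rescaled FPKM in Ctrl, 969 to 1415 in CIA and 891 to 1299 in CIA+THz, and CIA against Ctrl gave a log2 value of 0.24 ± 0.20.

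Of the B cell members, Fcmr, the IgM receptor, measured 60.5, 65.5 and 68.0 rescaled FPKM in Ctrl, with 108, 136 and 79.2 for the CIA libraries and 107, 148 and 115 for those of CIA+THz. Both arthritic groups lay above Ctrl in every library and overlapped with each other. Fcmr was 1.63-fold higher in CIA than in Ctrl (log2 0.70 ± 0.20, limma adjusted p = 0.158) and 1.88-fold higher in CIA+THz than in Ctrl (0.91 ± 0.14, adjusted p = 0.0680). The first of these fell below the fold minimum without CIA replicate 2 (0.52) or Ctrl replicate 1 (0.66), while the second met the criterion with each library left out in turn. The log2 difference between CIA+THz and CIA was 0.21 (95% interval -0.31 to 0.73), and 0.49 with FPKM as deposited.

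Fcrla was at 15.0, 17.1 and 19.6 rescaled FPKM in Ctrl, against 30.4, 26.6 and 19.6 for CIA and 21.1, 29.0 and 25.6 for CIA+THz. The highest Ctrl library and the lowest CIA library stood at the same rounded level, and the 2 arthritic groups overlapped. The log2 fold changes were 0.55 ± 0.19 for CIA against Ctrl (limma adjusted p = 0.225) and 0.54 ± 0.16 for CIA+THz against Ctrl (adjusted p = 0.164), both under the fold minimum. The first met the criterion without CIA replicate 3 (0.73), the lowest CIA library for both Fcmr and Fcrla. CIA+THz against CIA gave -0.01 (95% interval -0.47 to 0.45), and 0.27 with FPKM as deposited.

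A ratio of 2 genes within a library does not depend on how libraries are scaled, so the balance of activating to inhibitory IgG receptor genes was taken from the FPKM as deposited. Fcgr1 amounted to 0.0468 to 0.135 of Fcgr2b in Ctrl, 0.243 to 0.463 in CIA and 0.254 to 0.314 in CIA+THz. Its log2 ratio thus exceeded that of Ctrl by 2.26 in CIA and by 1.89 after irradiation, without overlap in either case, and CIA and CIA+THz overlapped. Fcgr3 moved the other way relative to Fcgr2b, from 4.94 to 5.31 times its level in Ctrl to 3.69 to 4.23 times in CIA and 2.97 to 3.53 times in CIA+THz. The log2 Fcgr3/Fcgr2b ratio averaged 2.35 ± 0.05 for Ctrl, 1.96 ± 0.11 for CIA and 1.73 ± 0.14 for CIA+THz (SD, n = 3 each), and no 2 groups overlapped. The differences were -0.39 for CIA against Ctrl, -0.22 for CIA+THz against CIA and -0.61 for CIA+THz against Ctrl. For Fcgr4 the ratio had medians of 0.589, 0.581 and 0.609 in Ctrl, CIA and CIA+THz, with ranges that overlapped and differences in the log2 ratio between 0.05 and 0.21. In the exact two-sided permutation test, the 5 comparisons without overlap each gave p = 0.1, the smallest that 3 against 3 libraries allow, and 0.18 after adjustment over the 9 comparisons made. The other 4 gave p between 0.4 and 0.7. No ratio could therefore pass 0.05 in this design. All 3 ratios contain Fcgr2b, whose value is uncertain through the sequence it shares with Fcgr3, and in Fcgr3/Fcgr2b both genes are affected.

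**Figure D3:**
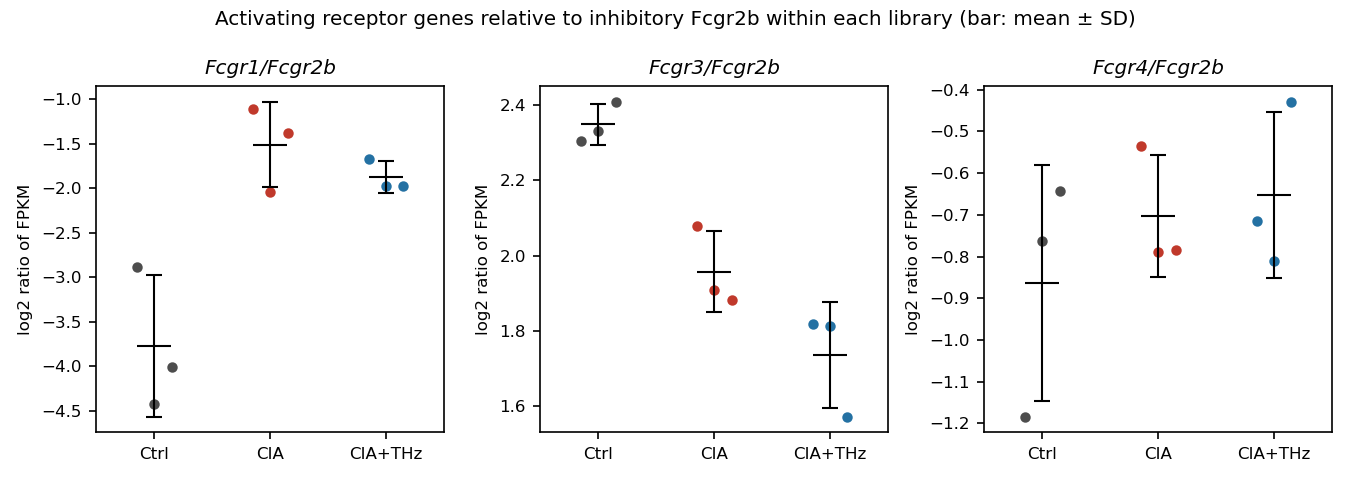
log2 ratio of each activating receptor gene to the inhibitory Fcgr2b (y axis, FPKM as deposited; each panel has its own scale) in the 3 libraries of each group (x axis), with bars for mean ± SD. Fcgr1/Fcgr2b is lowest in Ctrl, Fcgr3/Fcgr2b is highest in Ctrl and lowest in CIA+THz, and Fcgr4/Fcgr2b overlaps in all groups.

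The make-up of the activating receptor transcripts differed accordingly. Of the summed level of Fcgr1, Fcgr3 and Fcgr4, Fcgr3 made up 88.3% to 89.6% in Ctrl, 78.6% to 82.1% in CIA and 74.9% to 81.0% in CIA+THz. Fcgr1 made up 0.825% to 2.45% in Ctrl, 5.30% to 8.61% in CIA and 5.85% to 7.06% in CIA+THz. Fcgr4 made up 7.98% to 10.7%, 12.5% to 12.8% and 13.1% to 18.7% in the same order. The 2 arthritic groups were apart from Ctrl in all 3 shares, and Fcgr4 alone was also apart between them. The 3 shares are parts of 1 sum, so a lower share of Fcgr3 raises those of the others. The level of Fcgr4 itself overlapped between CIA and CIA+THz. The value of Fcgr3 also carries the uncertainty of its shared sequence. The shared chain Fcer1g stood at 2.13 to 2.45 times the summed level of the 3 receptors in Ctrl, 2.42 to 2.76 times in CIA and 2.54 to 2.67 times in CIA+THz. These are descriptions of level per length, with no test.

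The wider Fc pathway was followed in 2 lists. Of 24 genes that relay or restrain Fc receptor signals, all 24 were tested. In CIA against Ctrl 18 were higher and 6 lower, with a median log2 fold change of 0.19, and 1 rose by the criterion, about the share of all genes (4.78%). This was Cybb, the catalytic subunit of the phagocyte NADPH oxidase, at 27.3 to 33.4 rescaled FPKM in Ctrl, 56.3 to 76.7 in CIA and 51.9 to 55.0 in CIA+THz. With rescaling the groups did not overlap. Cybb rose by 1.16 ± 0.15 on the log2 scale in CIA against Ctrl (limma adjusted p = 0.0511) and by 0.82 ± 0.11 in CIA+THz against Ctrl (adjusted p = 0.0562). Between CIA+THz and CIA its log2 difference was -0.34 ± 0.13, and -0.06 with FPKM as deposited. After irradiation 20 of the 24 stood below CIA, with a median of -0.25, and 1 of 24 fell by the criterion where 1.58% of all genes did, Tyrobp, an adaptor with an activation motif like that of the gamma chain. Tyrobp had 216 to 254 rescaled FPKM in Ctrl, 337 to 353 in CIA and 199 to 225 in CIA+THz, a log2 difference between CIA+THz and CIA of -0.67 ± 0.09 (adjusted p = 0.167) that was -0.39, under the fold minimum, with FPKM as deposited. Without rescaling, 11 of the 24 were lower. Against Ctrl, CIA+THz was higher for 9 and lower for 15 of the 24, but higher for 21 with FPKM as deposited, and Cybb alone met the criterion with both scalings. Syk, the kinase recruited by the gamma chain, had a log2 fold change of 0.13 ± 0.15 in CIA against Ctrl and -0.14 ± 0.15 in CIA+THz against CIA, with overlapping groups at 129 to 190 rescaled FPKM over all libraries.

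The second list held 12 other Fc receptor genes and partners, of which 8 passed the filter and Pigr, Fcrl6, Fcrlb and Fcrls did not. In CIA against Ctrl 0 of the 8 met the criterion, by which 4.78% of all genes rose. Fcrl1 alone was higher at a limma p under 0.05 (log2 fold change 0.48 ± 0.15). That is 1 of 8 where 8.84% of all genes were higher on p alone, about the share of all genes. In CIA+THz 6 of the 8 were higher than in CIA and 7 of the 8 higher than in Ctrl. By the criterion Fcer1a rose against CIA, 1 of 8 where 2.96% of all genes rose, and Fcer1a and Fcer2a rose against Ctrl, 2 of 8 where 4.64% did. Fcer2a, the low-affinity IgE receptor of B cells, had 7.24 to 11.7 rescaled FPKM in Ctrl, 10.6 to 12.8 in CIA and 15.8 to 20.0 in CIA+THz, and rose by 1.03 ± 0.21 in CIA+THz against Ctrl (limma adjusted p = 0.0993). Against CIA its log2 difference was 0.60 ± 0.13, and 0.88, past the fold minimum, with FPKM as deposited. Fcer1a, the alpha chain of the high-affinity IgE receptor of mast cells and basophils, had 2.30 to 2.94, 2.11 to 3.27 and 4.17 to 4.43 rescaled FPKM in the same order. All CIA+THz libraries were above the others, and Fcer1a rose by 0.77 ± 0.23 against CIA (adjusted p = 0.266) and by 0.68 ± 0.20 against Ctrl (adjusted p = 0.165), although both fell under the fold minimum with a pseudocount of 1. Ms4a2, the beta chain of the same receptor, had a log2 difference of 0.43 ± 0.26 against CIA and -0.17 ± 0.18 against Ctrl, and with FPKM as deposited these were 0.70, which met the criterion, and 0.14. Fcrl1 also met it against Ctrl on that scale (0.80). Trim21, an Fc receptor of the cytosol, was at 2.59 to 3.82 rescaled FPKM over all libraries.

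Levels of blood cell markers also differed between the groups. The summed level of 9 classical monocyte markers was 677 to 766 rescaled FPKM in Ctrl, 1106 to 1232 in CIA and 867 to 928 in CIA+THz, and in 9 of 9 markers CIA exceeded both Ctrl and CIA+THz. Without rescaling, CIA+THz exceeded CIA for 4 of the 9, and the sums of CIA (1059 to 1203) and CIA+THz (978 to 1126) overlapped.

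The 11 neutrophil markers summed to 12828 to 21664 in Ctrl, 14940 to 19678 in CIA and 10978 to 12474 in CIA+THz, and without rescaling the 3 groups overlapped (13385 to 18130, 13416 to 18838 and 11911 to 15276). S100a9 made up 74.2% of this sum, and the other markers did not share 1 course. In CIA against Ctrl the granule genes Camp (4.86), Ltf (4.08) and Ngp (3.02) rose on the log2 scale and Mmp8 fell (-1.35). Between CIA+THz and CIA the log2 differences were -2.04 for Camp, -1.93 for Ltf, -1.86 for Ngp and -0.08 for Mmp8. In this comparison 11 of the 11 markers were lower with rescaling, and 1 was higher without it. The 8 NK cell markers, of a cell that also carries Fcgr3, summed to 167 to 217 in Ctrl, 70.3 to 147 in CIA and 114 to 171 in CIA+THz, and the 6 markers of patrolling monocytes to 80.7 to 132, 97.6 to 146 and 147 to 162. Without rescaling the NK cell sums of CIA (67.3 to 132) and CIA+THz (129 to 186) overlapped. Those of patrolling monocytes (93.4 to 143 and 166 to 190) did not.

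Among lymphocytes, the 10 B cell markers summed to 513 to 616, 546 to 713 and 653 to 852, and 10 of 10 were higher in CIA+THz than in Ctrl. The B cell sums of CIA and CIA+THz overlapped with rescaling, and without it CIA+THz (799 to 962) lay above CIA (535 to 683). The 11 T cell markers, of cells that carry few Fc receptors, summed to 489 to 547 in Ctrl, 382 to 424 in CIA and 489 to 643 in CIA+THz, with 11 of 11 below Ctrl in CIA. Their sum was also higher in CIA+THz (531 to 788) than in CIA (366 to 398) without rescaling. The 8 plasma cell markers summed to 118 to 142, 58.0 to 65.1 and 52.8 to 59.0, so that both arthritic groups lay below Ctrl, and without rescaling CIA+THz (64.0 to 65.6) lay above CIA (55.5 to 58.5). Xbp1 made up 40.4% of this sum. The other 7 genes summed to 90.5 to 109 in Ctrl, 17.8 to 22.1 in CIA and 22.0 to 32.4 in CIA+THz with rescaling. Both arthritic groups again lay below Ctrl, and CIA and CIA+THz overlapped slightly. The 7 red cell precursor markers summed to 70035 to 105041 in Ctrl, 88290 to 99154 in CIA and 48075 to 66331 in CIA+THz. CIA+THz was below both other groups in every library, also without rescaling (58874 to 71969, against 73076 to 87904 in Ctrl and 86490 to 89041 in CIA). Alas2 made up 99.4% of this sum. The other 6 genes summed to 425 to 814, 290 to 560 and 314 to 446, with CIA+THz overlapping both other groups. The B cell, T cell, monocyte, neutrophil and NK cell lists had no marker at 0 in all libraries.

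**Figure D4:**
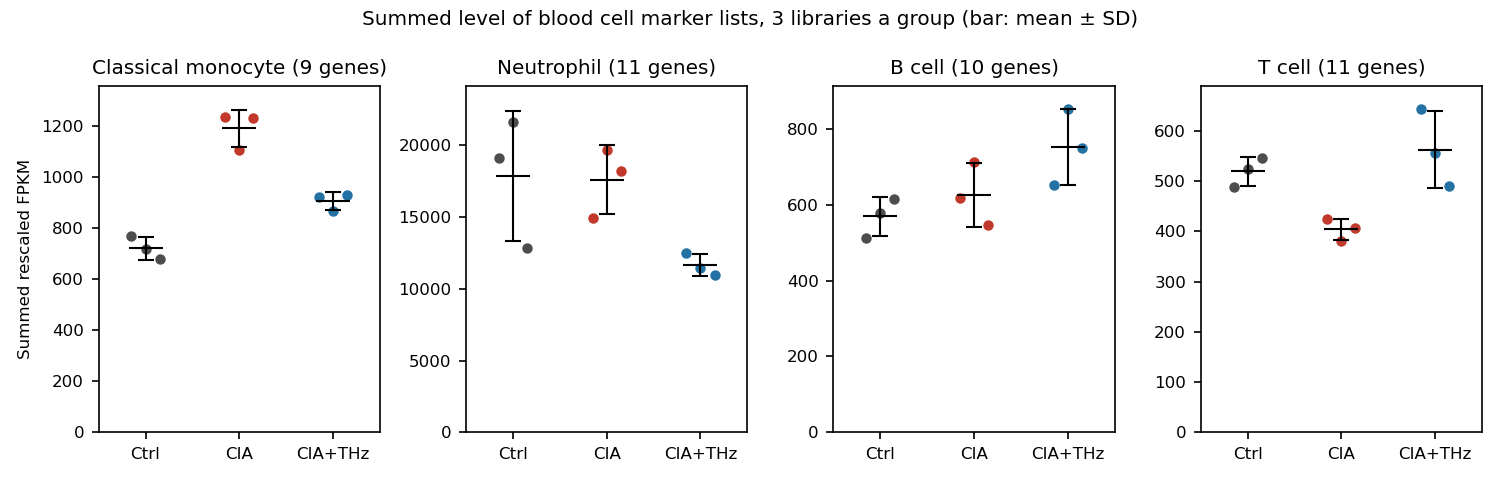
Summed rescaled FPKM (y axis, from 0) of the marker lists of classical monocytes, neutrophils, B cells and T cells in the 3 libraries of each group (x axis), with bars for mean ± SD. The monocyte sum is highest in CIA (1106 to 1232) and the T cell sum lowest in CIA (382 to 424), and the neutrophil sum is lowest in CIA+THz on this scale but overlapped between groups with FPKM as deposited.

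Set against these sums within each library, which again is free of the scaling, the members separated. Per 100 units of the classical monocyte sum, Fcgr1 was at 0.228 to 0.620 in Ctrl, 1.12 to 1.52 in CIA and 1.01 to 1.32 in CIA+THz, so that the log2 difference of CIA from Ctrl was 2.03 where that of the gene itself was 2.69. Fcgrt was at 0.369 to 0.484, 0.637 to 0.728 and 0.659 to 0.695, a log2 difference of 0.64 for CIA against Ctrl and 0.03 for CIA+THz against CIA. For these 2 genes Ctrl remained below both arthritic groups in every library, and CIA and CIA+THz overlapped. Fcgr4 (2.02 to 2.87, 2.17 to 2.68 and 2.33 to 2.97), Fcgr2b (4.12 to 4.87, 3.28 to 4.63 and 3.99 to 4.21) and Fcer1g (52.7 to 61.8, 42.2 to 57.5 and 42.4 to 47.7) overlapped between CIA and Ctrl on this measure, and Fcgr3 was lower in both arthritic groups (21.9 to 24.5 in Ctrl, 13.8 to 17.4 in CIA, 11.9 to 14.9 in CIA+THz). Per 100 units of the neutrophil sum, Fcgr3 was at 0.811 to 1.15, 0.929 to 1.14 and 1.00 to 1.10, and the 3 groups overlapped. On the same measure Fcgr4 (0.0808 to 0.139, 0.146 to 0.187 and 0.176 to 0.251) and Fcer1g (1.95 to 2.78, 2.84 to 4.02 and 3.43 to 3.58) were higher in both arthritic groups than in every Ctrl library. When S100a9 was left out of the neutrophil sum, Fcgr4 kept this order (0.309 to 0.505, 0.510 to 0.778 and 0.653 to 0.990), and CIA and Ctrl overlapped for Fcer1g (8.11 to 10.1 in Ctrl, 9.89 to 16.8 in CIA). Per 100 units of the B cell sum, Fcmr was at 11.0 to 11.8 in Ctrl, 14.5 to 19.1 in CIA and 15.3 to 17.3 in CIA+THz, and Fcrla at 2.92 to 3.18, 3.59 to 4.93 and 3.23 to 3.41. Both were higher in the arthritic groups than in Ctrl in every library. Against the B cell sum, Fcgr2b was at 4.53 to 6.84 in Ctrl, 6.56 to 8.42 in CIA and 4.16 to 5.93 in CIA+THz. Per 100 units of the patrolling monocyte sum, Fcgr4 was at 13.5 to 19.8, 18.3 to 30.3 and 13.8 to 17.0. On these 2 measures CIA+THz lay below CIA in every library, and Ctrl overlapped with both arthritic groups. The part of cell numbers in these differences was not tested, and the sums stand for a few marker genes only. The authors also counted blood cells in the same groups. They report more lymphocytes, neutrophils and monocytes in CIA than in Ctrl, and a smaller increase in CIA+THz. Such counts are numbers of cells, whereas a marker sum is relative to the other RNA of its library. The T cell sum, lowest in CIA, did not follow the lymphocyte counts.

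Across the 9 libraries, the profiles most like each member were found by Pearson's r of log2 levels over 9767 genes with a mean of at least 1 rescaled FPKM. They describe libraries that share 3 groups and carry no test. For Fcgr1 these were Arhgef37 (r = 0.990), Plac8 (0.980) and Gatm (0.978). For Fcgrt they were Ctss (0.980), which encodes the lysosomal protease cathepsin S, Dna2 (0.972) and Adgre1 (0.967), which encodes the macrophage marker F4/80. Fcmr was closest to H2-Ab1 (0.966) and Cd74 (0.963), a chain of MHC class II and its invariant chain, and Cd74 was also among the 3 closest to Fcrla (0.953). Fcgr4 was closest to Usf1 (0.963), Fcgr2b to Cebpa (0.965), Fcer1g to Fkbp8 (0.969) and Fcgr3 to Klc4 (0.956). Among the members, Fcgr1 and Fcgrt were the most alike pair (r = 0.946), followed by Fcmr and Fcrla (0.898), and Fcgr3 and Fcmr were the least alike (-0.38).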

How the data were processed

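The authors sequenced blood RNA as 150-base read pairs on an Illumina HiSeq instrument and deposited FPKM per gene symbol for 9 libraries. Per the labels, bcl2fastq 2.0, HISAT2, StringTie and DESeq2 were used with mouse build mm10, with no roles given; annotation and strand are not given in the sources used here. FPKM hold no counts and no whole-read steps were found in them, so the depth of the libraries is unknown and no counting interval is given. Between 11801 and 12807 genes were above 0 per library, and FPKM summed to 505777 to 530676. Columns were rescaled by the median of ratios to the geometric mean, using the 10312 genes detected in every library. For the 12382 genes with a mean of at least 0.1, log2(rescaled FPKM + 0.1) was fitted with limma 3.58.1 (lmFit, eBayes with trend; R 4.3.3), each pair on its 6 libraries and the F-test on 9; adding 0.1 understates fold changes of low genes. The criterion was an unadjusted p under 0.05, with an absolute log2 fold change above 0.67 for pairs; adjustment was by Benjamini-Hochberg over all genes tested. The fit was tested on simulated data. Ratios used exact permutation tests (scipy 1.17.1). Genes named were the 8 members, genes of the signalling and other-receptor lists that met the criterion for any pair, and Syk, B2m, Trim21 and Fcer2a as examples; Fcrl1, Ms4a2 and 4 neutrophil granule genes were named, and levels per marker sum and sums without the most abundant marker added, after values were seen. Members and lists were chosen with earlier results of these data known. Alternatives were FPKM as deposited, upper-quartile scaling, other pseudocounts and filters, no trend, 1 fit of all libraries, a replicate block, adjusted p and leaving out each library.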

Additional observations from a re-analysis of the deposited data

How the results depend on the processing

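With FPKM as deposited, all genes called numbered 1199 for CIA+THz against CIA (562 with rescaling) and 1720 for CIA+THz against Ctrl (972), and 5 Fc receptor genes met the criterion against Ctrl (3). Direction turned for Fcgr4 (0.028) and Fcrla (0.27) in CIA+THz against CIA and for Fcer1g (0.29) in CIA+THz against Ctrl. Upper-quartile scaling turned Fcrla (0.024) and Fcer1g (0.014) in the same comparisons. With a pseudocount of 1, 287 of all genes met the criterion for CIA+THz against CIA. With adjusted p, 0 Fc receptor genes met it in each pair and 2 across the 3 groups, and 19, 0 and 13 of all genes did for CIA against Ctrl, CIA+THz against CIA and CIA+THz against Ctrl, and 317 across the groups. Leaving out 1 library gave 2 to 5 Fc receptor genes for CIA against Ctrl (5 without CIA replicate 3), 0 to 1 for CIA+THz against CIA, 3 to 3 for CIA+THz against Ctrl and 7 to 8 across the groups. All genes called ranged over 965 to 1253, 490 to 747, 727 to 1483 (the highest without Ctrl replicate 3) and 2058 to 2789 in the same order. Directions turned under leave-one-out for Fcrla in CIA+THz against CIA (range -0.185 to 0.130) and Fcer1g in CIA+THz against Ctrl (range -0.131 to 0.074), both near 0 with all libraries. The causes were not tested. A fit with the replicate block gave 3, 0, 3 and 8 Fc receptor genes in the same order and changed no call. Libraries with the same number did not deviate together over all genes tested (r between -0.05 and 0.03). The numbers thus gave no sign of pairing, but this check cannot exclude handling shared by some libraries that affects few genes. The ratios to Fcgr2b moved by less than 1 SD with a pseudocount of 1 and with each library left out, the only alternatives run for them.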
